A study of Mus musculus with 4 samples.

Results

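Glomerular RNA of guanylyl cyclase A knockout mice given aldosterone and salt (KO ALDO) was compared with that of wild-type mice given the same treatment (WT ALDO), gene by gene. Of 18193 genes with a probe set of a single gene symbol, the 9097 in the brighter 50% by mean level over the 4 arrays of the series were described, each by its brightest probe set. The difference of a gene is log2(intensity + 16) in KO ALDO minus the same in WT ALDO, so that 1 is 2-fold higher and -1 is 2-fold lower in the knockout. RNA of male mouse glomeruli was hybridised to 1 microarray for each of 4 groups: wild type (WT) and GC-A KO, each under control treatment and under ALDO treatment. Every group had had a kidney removed (uninephrectomy). The ALDO groups received aldosterone continuously under the skin and a diet with 6% salt for 3 weeks, and the control groups 2% ethanol by the same route with normal food. Both sides of the comparison therefore lacked a kidney and had received aldosterone and salt, and the labels give only genotype as differing between them. The sources used here do not give the strain, the age, the design of the knockout allele or whether an array holds 1 mouse or a pool. With 1 array per group there is no replicate, no error and no test, and the mouse, the preparation and the array cannot be told apart from genotype.

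GC-A, encoded by Npr1, is the receptor through which atrial and B-type natriuretic peptides raise cyclic GMP, which relaxes vessels, promotes sodium excretion and restrains renin and aldosterone. Aldosterone acts on the mineralocorticoid receptor to retain sodium in the distal nephron, and in excess with salt it raises blood pressure and injures glomeruli and tubules. The glomerulus filters plasma through endothelium, basement membrane and podocytes, is held by mesangial cells and is enclosed by parietal epithelium.

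Where 4 intensities are given, the control arrays come before the ALDO arrays, and within each pair WT comes before KO. The targeted gene could not serve as a check of the labels: the Npr1 probe set read 92.6, 108, 60.5 and 23.4, far under the intensity of 247 that bounded the brighter 50%, and which exons the knockout allele lacks is unknown here. Defining podocyte genes were bright on both ALDO arrays, with nephrin (Nphs1) at 1717 and 1899 and podocalyxin (Podxl) at 9785 and 10271 in WT and KO, and so were genes of the proximal tubule, whose values are given further on. The trimmed mean was 500.003 on every array, while the median over all probe sets was 91.9 in WT ALDO and 103 in KO ALDO. Spiked-in control RNA differed little between the ALDO arrays (41 probe sets, median difference 0.04, range -0.35 to 0.29). The 3′ to 5′ signal ratio, which increases as RNA degrades, was 1.87 in WT ALDO and 1.61 in KO ALDO for beta-actin, and 0.778 and 0.744 for Gapdh.

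In KO ALDO, 115 of the 9097 genes were higher by 2-fold or more (1.26%) and 32 were lower (0.352%). At 1.5-fold the counts were 596 higher (6.55%) and 220 lower (2.42%), and 4670 genes lay above 0 (51.3%), with a median difference over all genes of 0.01. These percentages are the background against which counts of gene groups are given here. The brightness filter uses the mean over all 4 arrays, so it can keep a gene through its KO values alone. When the arrays were centred on their medians, the median of all genes moved to -0.13 and the split at 2-fold from 115 against 32 to 70 against 52, so 78.2% of the past-2-fold genes were higher as deposited and 57.4% after centring. The counts also varied with level: in 4 equal classes from the dimmest to the brightest 25% of the genes counted, the numbers higher by 2-fold were 48, 32, 29 and 6 and the median differences 0.11, 0.05, -0.02 and -0.08.

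**Figure D1:**
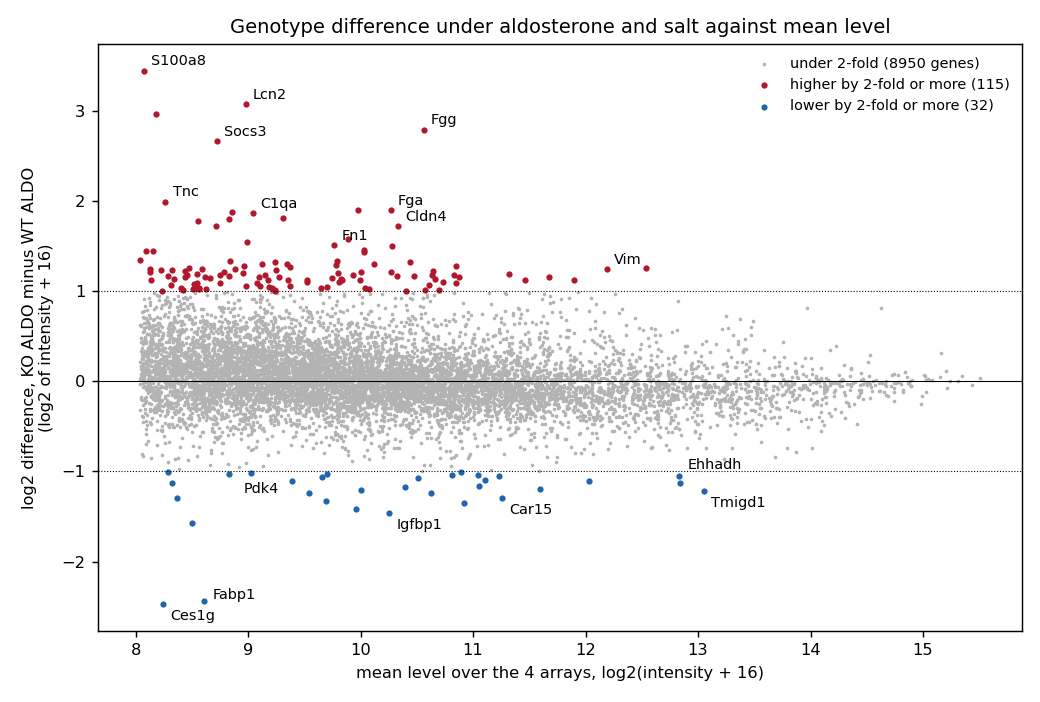
Each point is a gene: mean level over the 4 arrays on the horizontal axis, difference between KO ALDO and WT ALDO on the vertical axis, both in log2 of intensity + 16, with dotted lines at 2-fold. The 115 higher genes (red) lie mostly at low and middle levels, and the 32 lower genes (blue) reach up to bright tubular genes such as Tmigd1.

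Several of the largest differences were in genes of the acute-phase and interleukin-6 response, the programme through which cytokines of the IL-6 family act on STAT3. Of 20 measured genes of the list, 16 lay above 0 and 8 were higher by 2-fold, where 1.26% of all genes were. Their median was 0.68. The ligands themselves were too dim to read: Il6 had intensities of 11.6, 0.903, 12.6 and 33.0, and cardiotrophin 1 (Ctf1), the only ligand of 8 in the brighter 50%, had a difference of -0.18. Among receptors, the oncostatin M receptor Osmr read 389.8, 596, 498 and 1134 (difference 1.16), the shared chain gp130 (Il6st) was at 0.41 and the IL-6 receptor chain Il6ra at -0.21. Osmr was brighter on the KO array under either treatment, and brightest in KO ALDO. Of the transducers, Stat3 went from 1445 to 2434 between the ALDO arrays (0.75) and Nfkbiz, an inducible nuclear IkB protein, from 377 to 839 (1.12), while the kinases Jak1 (-0.01) and Jak2 (-0.14) were close to 0.

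All 8 measured targets of the pathway lay above 0 (median 1.51), 6 of them by 2-fold, but 20 targets had a probe set. Of the 6, Socs3, Lcn2 and Cebpd read under 247, the bound of the brighter 50%, on both WT arrays. The filter therefore kept these through their KO values, which limits the count. With all genes kept, the median of the whole acute-phase list was 0.69. Socs3, the feedback inhibitor that STAT3 induces, read 215, 558, 179.7 and 1221 (difference 2.66, and 1.94 as the mean of all its probe sets). Fibrinogen gamma (Fgg) read 676, 1995, 721 and 5082 (2.79) and its neighbour on the chromosome, fibrinogen alpha (Fga), 742, 1176, 812 and 3064 (1.89). The third chain, Fgb, was outside the brighter 50% and also brightest in KO ALDO, at 61.3, 119, 140.2 and 742. Fibrinogen chains were thus brightest in KO ALDO and next brightest, for Fgg and Fga, in KO control. Ceruloplasmin (Cp), a copper-carrying acute-phase protein, was at 1.13, the transcription factor Cebpd at 1.06, the glycoprotein Lrg1 at 0.88 and Cebpb at 0.35. Lcn2, an iron-siderophore binder secreted by injured tubules and neutrophils, had a larger difference under control treatment (4.03) than under ALDO (3.07).

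The promoters of Socs3 and Fga are shown because they hold the 9-base STAT palindrome, TTCNNNGAA, among the genes with the largest differences. It was searched as exact letters on both strands of the 250 bases before the RefSeq start (assembly GRCm38.p6); capitals mark it, and each stretch reads 5′ to 3′ on the strand of the gene.
Socs3, chr11:117969421-117969540, minus strand: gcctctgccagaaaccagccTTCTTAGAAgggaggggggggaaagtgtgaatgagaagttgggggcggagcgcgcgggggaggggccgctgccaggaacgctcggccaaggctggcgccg
Fga, chr3:83025903-83026022, plus strand: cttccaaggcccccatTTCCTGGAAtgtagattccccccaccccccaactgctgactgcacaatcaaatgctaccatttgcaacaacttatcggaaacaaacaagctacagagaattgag
The palindrome began 154 bases before the start of Socs3 and 234 before that of Fga. It was in 3 of 18 windows of the acute-phase list (16.7%) and in 496 of the 7461 windows of all genes counted (6.65%). Among the genes higher by 2-fold it was in 4 of 88 windows (4.55%), below the share of all genes. No printed window held both this motif and the interferon response element described further on. A match of letters is a description and shows no binding.

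Genes known to mark injured tubules and activated epithelium were higher as a group. In the tubular injury list 14 of 16 measured genes lay above 0 and 8 were past 2-fold (median 0.92, and 0.41 in the brightest 25% of all genes). All 8 are counted in other lists here as well: Fgg and Lcn2 in the acute-phase list, and Tnc, Cldn4, Krt18, Cdkn1a, Vcam1 and Vim in others. The injury receptor Havcr1 (KIM-1) was outside the brighter 50% by its mean and dim on both WT arrays, at 39.3, 308, 70.1 and 1328. Tenascin C (Tnc), a matrix protein of wounds, read 193, 350.4, 155 and 665, and the intermediate filament vimentin (Vim) 3533, 4288, 3607 and 8566, with differences of 1.99 and 1.24. Vim was brightest in KO ALDO and between 3533 and 4288 on the other 3 arrays. Clusterin (Clu), a secreted chaperone, was already bright and went from 13782 to 24169 (0.81). Prom1 (-0.22) and the lipid droplet protein Plin2 (-0.25) lay below 0.

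Tight-junction claudins did not move as a family. The tightening claudins of the distal nephron and collecting duct were higher, with Cldn4 at 527, 2025, 858 and 2858 (1.72), Cldn7 at 0.78, Cldn3 at 0.77 and Cldn8 at 0.55. Cldn2, the leaky claudin of the proximal tubule, was at -0.03, and Cldn16, which carries magnesium in the thick limb, was lowest at -0.80. Keratins of simple epithelium were all above 0 (4 measured), led by Krt18 (1.03) and Krt7 (1.01). Parietal epithelial markers, several of them shared with injured tubules, had a median of 0.74 over 9 genes, all above 0 (0.40 in the brightest 25% of all genes), and their summed intensity was 38602, 46167, 38462 and 48323. The general parietal and tubular transcription factor Pax8 was at 0.05.

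Of the 42 lists with 5 or more measured genes, the macrophage and monocyte list had the highest median, 1.17. This place depends on the filter: with all genes kept its median was 0.96 and that of the tubular injury list 1.03. Of 31 genes with a probe set 16 were measured, of which 15 lay above 0 and 9 were higher by 2-fold. The Fc receptor gamma chain Fcer1g read 283, 788, 293 and 887, its adaptor partner Tyrobp 271, 742, 328 and 819, and the lysosomal protease cathepsin S (Ctss) 855, 1712, 524 and 1444. Each was brighter on both KO arrays than on both WT arrays, as were 14 of the 16 genes of the list, where 25% of all genes were and 23.7% were dimmer on both. The scavenger receptor Mrc1 (0.97) and the growth factor receptor Csf1r (0.65) were under 2-fold, and the inhibitory Fc receptor Fcgr2b was the only gene below 0 (-0.36). Adgre1 (F4/80) and Cd68, 2 defining markers outside the brighter 50%, read 154, 322, 164 and 415 and 123, 185, 116 and 317. Lyz1 and Lyz2 encode near-identical lysozymes whose probe sets may share signal, so their differences of 1.12 and 1.23 are best read as a pair. In whole tissue RNA, fewer cells of a type and less RNA per cell cannot be told apart, and the same holds for more cells and more RNA.

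MHC class II genes, which present antigen on macrophages, dendritic cells and B cells, were all above 0 (5 measured, median 0.98). The invariant chain Cd74 read 548, 1717, 760.4 and 1578, H2-Eb1 1149, 2372, 1395 and 2765 and the loading factor H2-DMa 313, 539, 320.2 and 654. Summed macrophage marker intensity was 14579.9, 25503, 14204 and 27189, and that of MHC class II genes 6586, 12288, 7431 and 13649.6. Both sums were higher on either KO array than on either WT array.

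Other leukocytes were hardly readable. Of the neutrophil list only S100a8 was in the brighter 50%, and its values of 383, 462, 34.5 and 533 put the WT ALDO array far below the others; the difference was large (3.44), and 2.60 with a pseudocount of 64. Its partner S100a9, outside the brighter 50%, had the same order at 320.2, 468, 4.50 and 453. Summed neutrophil intensity was 1145, 1410 on the control arrays and 376 and 1608 on the ALDO arrays. The pan-leukocyte gene Ptprc (CD45), the only lymphocyte-list gene in the brighter 50%, read 346, 796, 431 and 765, again brighter on the KO arrays. None of the 6 mast cell and erythroid genes with a probe set was in the brighter 50%.

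**Figure D2:**
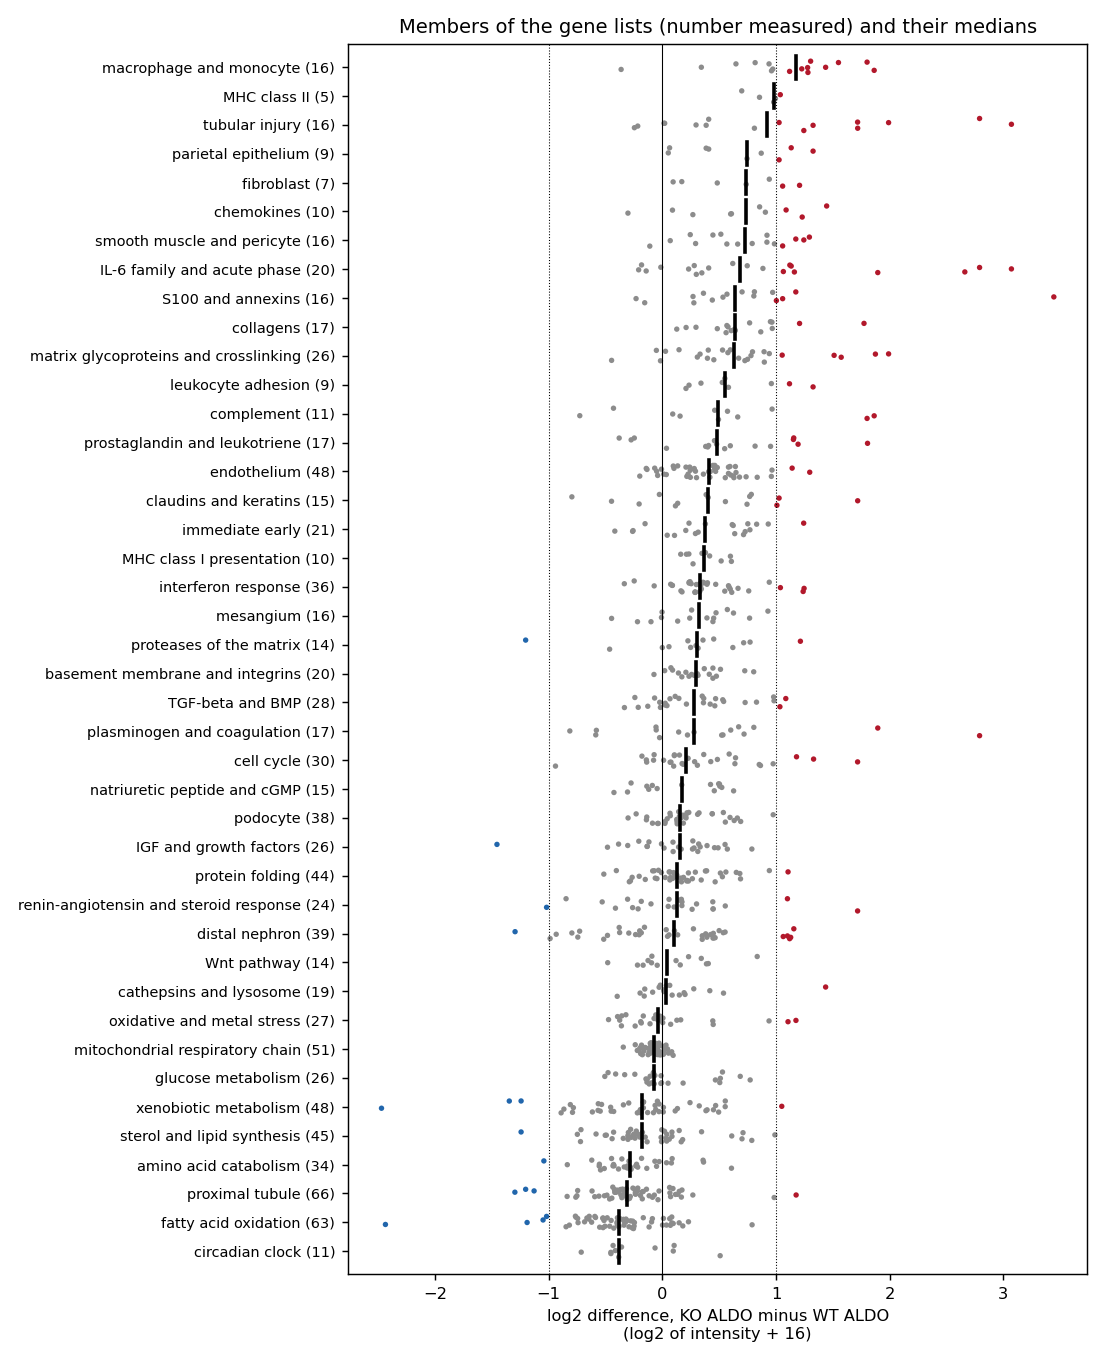
Members of the 42 gene lists with 5 or more measured genes, 1 row per list, by difference between KO ALDO and WT ALDO (log2 of intensity + 16); black bars are medians, red and blue points are past 2-fold. Medians run from 1.17 for macrophage genes to -0.38 for circadian clock genes (-0.06 there when probe sets are averaged), 33 above 0 and 9 below; median-centring of the arrays turns the protein folding, renin-angiotensin, distal nephron, Wnt and cathepsin medians below 0.

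Complement was divided by component. The C1q chains C1qa and C1qb, made by macrophages, were higher (1.86 and 1.80), as were the regulator factor I (Cfi, 0.97) and the C1 inhibitor Serping1 (0.66). Factor B (Cfb) was lower, from 4347 to 3223 (-0.43), and C2, its counterpart in the classical pathway, from 1564 to 939 (-0.73); the C2 probe set can cross-hybridise. All 5 measured regulators and receptors lay above 0.

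Chemokine ligands were higher in 7 of 8 measured cases, with a median of 0.88, but 23 ligands had a probe set. The 3 past 2-fold, Ccl6, Cxcl10 and Ccl28, read under 247, the bound of the brighter 50%, on both WT arrays. The filter therefore kept these through their KO values, which limits the count. For ligands and receptors together the median was 0.73, and 0.76 with all genes kept. Ccl6, a macrophage chemokine, read 162, 388, 152 and 440.3, and Cxcl10, the interferon-induced attractant of T cells, 238, 393, 166 and 410.1. The epithelial chemokine Ccl28 (1.09), the neutrophil attractant Cxcl1 (0.91) and the B cell attractant Cxcl13 (0.86) followed. Cxcl12, the homeostatic podocyte and stromal chemokine, lay below 0 (-0.30). The monocyte attractant Ccl2, outside the brighter 50%, read 35.1, 55.0, 17.2 and 149. All 9 measured adhesion genes lay above 0 (median 0.55), led by Vcam1 at 325, 894, 399.9 and 1026 and Icam1 at 578, 846, 499 and 1102, which bind leukocyte integrins. Vcam1 was bright in both KO arrays, Icam1 most in KO ALDO.

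Interferon-stimulated genes were higher by a small amount in nearly every member. All 20 measured effectors lay above 0 (median 0.39), but only Ifit1, which binds viral RNA, was past 2-fold at 1.25, from 170.4 to 426. The de-conjugating enzyme Usp18 was at 0.94 and the membrane protein Ifitm3 at 0.76. Of the 36 genes of the list, 25 were brighter on both KO arrays than on either WT array, where 25% of all genes were. Of the regulators, Irf7, the factor that amplifies type I interferon, was at 1.04 under either treatment, Irf9 at 0.34 and Irf1 at 0.29, with the interferon receptors Ifnar1 (0.09) and Ifngr2 (0.09) near 0. Guanylate-binding proteins and related GTPases, which respond most to interferon gamma, were mixed: Gbp3 was at 1.24, Gbp6 at 0.58, Irgm2 at -0.25 and Gbp2 at -0.33, with the next probe set of Gbp2 at 0.35. MHC class I genes and their peptide-loading machinery lay above 0 in all 10 measured members (median 0.36), led by the immunoproteasome subunits Psmb8 (0.61) and Psmb10 (0.60), and their median was higher under control treatment (0.42).

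Promoters of 3 interferon-induced genes past 2-fold are shown because they hold the interferon response element, TTTCNNTTTC, searched on both strands as before. Capitals mark it, and the stretches read 5′ to 3′ on the strand of the gene (RefSeq, GRCm38.p6).
Ifit1, chr19:34640765-34640884, plus strand: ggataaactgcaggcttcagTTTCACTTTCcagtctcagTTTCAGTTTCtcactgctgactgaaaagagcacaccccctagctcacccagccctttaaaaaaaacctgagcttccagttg
Gbp3, chr3:142559924-142560043, plus strand: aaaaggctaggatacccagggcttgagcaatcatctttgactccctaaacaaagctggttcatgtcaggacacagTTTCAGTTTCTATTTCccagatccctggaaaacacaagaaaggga
Cxcl10, chr5:92349003-92349122, minus strand: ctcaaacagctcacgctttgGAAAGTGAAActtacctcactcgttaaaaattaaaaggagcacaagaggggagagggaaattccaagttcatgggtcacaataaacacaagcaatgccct
Ifit1 held 2 copies, Gbp3 held 2 that overlap, and Cxcl10 held 1 on the reverse strand. The element was in 13 of 29 windows of the interferon list (44.8%), in 8 of 88 of the genes higher by 2-fold (9.09%), and in 225 of 7461 of all genes counted (3.02%). In WT control and WT ALDO, Ifit1 read 202 and 170.4, Gbp3 211 and 209, and Cxcl10 238 and 166. These values are under 247, the bound of the brightness filter. The filter therefore kept Ifit1, Gbp3 and Cxcl10 through their KO values, which limits the count of 8 of 88. Within the interferon list the median difference was 0.36 with the element and 0.29 without it.

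Matrix genes were mostly higher. All 17 measured collagen genes lay above 0 (median 0.63), 10 of them past 1.5-fold, and KO ALDO was the brightest array for 16. Among fibrillar collagens of scar tissue, Col3a1 read 519.7, 1172, 857 and 1999.7 (1.21), Col1a2 2499.8, 2947, 2844 and 5510.4 (0.95) and Col5a1 216, 327, 297 and 555 (0.87); Col1a1, outside the brighter 50%, read 160.1, 245, 93.1 and 450.3. Type IV collagen, the network of basement membranes, divided by chain. The widespread chains Col4a1 (0.97) and Col4a2 (0.96), which are transcribed from a shared promoter, were nearly 2-fold higher by their brightest probe sets. A further bright Col4a1 probe set was at -0.12, and the mean of all its probe sets was 0.42. The podocyte chains Col4a3 (0.13), Col4a4 (0.21) and Col4a5 (0.30) differed little. Col6a2 read 352, 267, 220.5 and 793, a difference of 1.77 against -0.38 under control treatment, while its partners Col6a1 (0.63) and Col6a3 (0.56) differed less, and the mean of all Col6a2 probe sets gave 1.14.

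Glycoproteins of the matrix had a median of 0.79, with 5 of 13 past 2-fold. Fibronectin (Fn1) read 511, 757, 685 and 1980.3, brightest in KO ALDO with the other 3 arrays between 511 and 757. Ccn1 (CYR61), an early-response matricellular protein, read 838, 846, 588 and 1782, so the 2 control arrays were alike and the ALDO arrays diverged to either side. Pamr1, a secreted protein named for muscle regeneration, read 236, 658, 257 and 984, and the elastin-associated Emilin1 418, 574, 585 and 1232. Thrombospondins Thbs2 (0.89) and Thbs1 (0.79), osteonectin (Sparc, 0.73) and Ccn2 (CTGF, 0.58) were under 2-fold. Of the proteoglycans, decorin (Dcn) was at 0.94 and Prelp at -0.45. All 8 measured genes of collagen folding and crosslinking lay above 0 (median 0.43), led by the lysyl oxidase Loxl1 (0.90), the collagen chaperone Serpinh1 (HSP47, 0.78) and the lysyl hydroxylase Plod2 (0.75). For these 3 the control differences were only 0.25, 0.12 and 0.10.

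Basement membrane genes other than collagens were all above 0 (10 measured, median 0.29), with nidogen 1 (Nid1) highest at 0.72 and laminin beta 1 (Lamb1) lowest at 0.07. The laminin receptor chain Itga6 led the integrins (0.80, from 1979.7 to 3467). Proteases that cleave proteoglycans and collagens were mostly higher, with Adamts1 at 931, 1592, 795 and 1866 (1.21), Adamts5 at 0.77, Mmp14 at 0.71 and Mmp2 at 0.62. Both meprins, brush-border proteases of the proximal tubule, were lower (Mep1a -0.46, Mep1b -1.20), and the inhibitor Timp3, bright on each array, was alike on the ALDO arrays.

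In coagulation, apart from the fibrinogen chains, protein S (Pros1, 0.72), the thrombin receptor F2r (0.67) and thrombomodulin (Thbd, 0.52) were higher, and protein C (Proc, -0.59) was lower. The plasminogen activators differed in sign. Tissue-type activator (Plat), made by glomerular endothelium, went from 8927 to 13552 (0.60). Urokinase (Plau), made by tubules, went from 1434 to 808 (-0.81), and the plasmin inhibitor Serpinf2 was at -0.58.

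TGF-beta and BMP genes had a median of 0.28 over 28 genes, and 0.12 with probe sets averaged. Ligands were near 0 as a group (median 0.07), with Bmp2 highest (0.73) and Bmp4 lowest (-0.33). Smad6, an inhibitor that BMP signalling induces, read 1583, 1498, 1487 and 3174: the control arrays were alike and KO ALDO was over 2-fold above WT ALDO. Of the 13 receptors and SMADs 10 lay above 0 (median 0.21), with the receptor Acvrl1 (ALK1) next after Smad6 at 0.83. Of the 8 antagonists and targets 6 lay above 0 (median 0.45), led by the TGF-beta-induced protein Tgfbi (1.03), Id1 (0.98, and 0.81 under control treatment) and Id3 (0.98), while Smad2 (0.04), Smad3 (-0.02) and Smad4 (0.03), the signal carriers, were close to 0.

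Podocyte genes as a list were slightly higher in KO ALDO, with 31 of 38 measured genes above 0 and a median of 0.15; after median-centring it was 0.01. Slit diaphragm genes differed little: Nphs1 read 1752, 1675, 1717 and 1899 (0.14), and Cd2ap was at 0.13, Podxl at 0.07 and Ptpro at 0.18. Thsd7a, an antigen in membranous nephropathy, was lowest (-0.30), although its next probe set was at 0.18, and Pla2r1, the other such antigen, was highest among adhesion genes (0.69). Cytoskeletal genes spread more widely, with the formin Inf2 at 0.97 (539, 477, 492 and 983), nestin (Nes) at 0.63 and Myo1e at 0.55, against Arhgap24 at -0.23. The factors Wt1 (0.13) and Tcf21 (0.02) and the secreted Vegfa (-0.04) lay within 0.2 of 0. Summed podocyte intensity was 108442, 108444, 108510 and 120861, alike on the first 3 arrays.

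Endothelial genes were higher in 41 of 48 cases, with a median of 0.41 (0.26 in the brightest 25% of all genes) and a summed intensity of 113730, 127103, 125945 and 151135. The endothelial transcription factor Sox18 read 799, 1085, 818 and 2031 (1.30), and the sialomucin Cd34 1113, 1442, 1305 and 2552 (0.96). Receptors that define the lineage differed less, with Kdr at 0.41, Tek at 0.21, Flt1 at 0.25 and Ptprb at 0.10. Genes of glomerular endothelium divided, with Tbx3 (0.96), Sost (0.83) and Ehd3 (0.58) higher and Igfbp3 (-0.14) and Lpl (-0.20) below 0. Of the vasoactive genes, adrenomedullin (Adm), a vasodilator peptide, read 352, 825, 873 and 1944 (1.14), its receptor partner Ramp3 was at 0.64, endothelin 1 (Edn1) at 0.55 and nitric oxide synthase 3 (Nos3) at 0.36. The endothelin B receptor Ednrb (-0.05) did not follow.

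Contractile and mesenchymal genes were also mostly higher. Smooth muscle and pericyte genes had a median of 0.73, with 15 of 16 above 0 and a summed intensity of 49334, 59978, 60802 and 89287. Tagln (SM22) read 478, 719, 805 and 1995 and smooth muscle actin (Acta2) 2511, 2966, 3586 and 6797, each brightest in KO ALDO. The other members of this list past 2-fold, Vim (1.24), S100a6 (1.17) and S100a4 (1.06), belong to other lists here as well. Contractile genes did not all follow: Smtn was at 0.25 and Mylk at 0.07. The late marker of contractile smooth muscle, Myh11, went from 552 to 510.1 (-0.11). In the mesangium list (median 0.32) the proteoglycan Cspg4 (NG2) at 0.93, the connexin Gja4 at 0.77 and the growth factor pleiotrophin (Ptn) at 0.63 were highest, followed by Pdgfrb (0.57), and Sfrp2 (-0.22) and Prelp were lowest. Fibroblast genes were all above 0 (7 measured, median 0.74, and 0.48 with all genes kept), although the receptor Pdgfra was only at 0.09. Summed intensities were 39249.7, 41242, 48728 and 54911 for mesangium and 7722, 10628, 10242 and 14722 for fibroblast markers. Markers of vessels and mesenchyme were thus mostly higher, as were the matrix genes. These lists share members, among them Col3a1, Dcn and Prelp, so part of this is the same genes counted again. The part of the markers in the matrix differences was not tested.

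Genes of the natriuretic peptide pathway itself had no common direction as deposited: 8 of 15 measured genes were above 0, and the median of 0.17 was 0.03 after centring and -0.09 in the brightest 25% of all genes. The peptides Nppa (42.4, 50.1, 3.76 and 42.2) and Nppb (78.8, 95.8, 48.1 and 79.0) were dim on each array. The other receptors differed little between the ALDO arrays, with the clearance receptor Npr3 at 1051, 994, 1183 and 1088 and the C-type peptide receptor Npr2 at 774, 589, 736 and 668, where the control difference of Npr2 was -0.38. Downstream of cyclic GMP, all 4 measured genes lay above 0: Rgs2, a brake on vasoconstrictor receptors (0.52), Vasp (0.49), the kinase Prkg1 (0.46) and its substrate Mrvi1 (0.42). Of these, Prkg1 is expressed in contractile cells. In the smooth muscle and pericyte list 15 of 16 genes lay above 0, but the contractile genes Mylk (0.07) and Myh11 (-0.11) did not follow. The part of these cells was not tested. Phosphodiesterases that degrade cyclic GMP were divided, with Pde2a (0.51) and Pde5a (0.50) higher and Pde9a (-0.31) lower. The soluble guanylyl cyclase subunit Gucy1a2 was at 0.63 and the subunits Gucy1a1 (-0.09) and Gucy1b1 (-0.05) were near 0.

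Below 0 stood the genes of proximal tubule function. Of 66 measured genes 54 were lower, with a median of -0.31, against -0.08 for the brightest 25% of the genes counted, to which 49 of them belong. Only 9 were lower by 1.5-fold and 3 by 2-fold. On both KO arrays 39 of the 66 were dimmer than on either WT array, where 23.7% of all genes were. Transporters of organic anions and cations were lower in 21 of 22 cases (median -0.40), from Slco3a1 at 0.06 to the efflux pump Abcb1b at -1.30. Abcb1b read 207, 152, 871 and 345, so WT ALDO was the bright array. The aspartate, glutamate and cystine transporter Slc7a13 read 10467, 7138, 9159 and 4181 (-1.13), the glucose transporter Slc5a1 (SGLT1) 1061, 911, 1842 and 1024 (-0.84) and the phosphate transporter Slc34a3 4239, 2686, 3639 and 2364 (-0.62). The main phosphate transporter Slc34a1 (-0.12) and bicarbonate transporter Slc4a4 (-0.04), among the brightest genes, were near 0. Megalin (Lrp2, -0.41) and cubilin (Cubn, -0.31), the receptors that take up filtered protein, were lower by less than 1.5-fold. Highest of the 12 genes above 0 were the glutamine transporter Slc38a3 (1.18) and the phosphate transporter Slc20a1 (0.98), and Kl (klotho) was at 0.27. Summed proximal tubule intensity was 548803, 483587, 518501 and 434913, lowest in KO ALDO. The RNA was of glomeruli, and how much tubule each preparation held is unknown here. Its part in these differences was not tested and cannot be told apart from genotype.

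Distal segments had a median of 0.11, -0.04 after centring, and differed by function. The epithelial sodium channel, which aldosterone controls, was higher: the alpha subunit Scnn1a read 534, 768, 549 and 1196 (1.10), gamma, Scnn1g, 871, 2040.2, 1235 and 2599 (1.06), and beta, Scnn1b, 339.9, 803, 520 and 715 (0.45). Its activating kinase Sgk1 was at 0.45 and the ubiquitin ligase that removes it, Nedd4l, at -0.38. The ammonia channel Rhcg (1.16), the potassium channel subunit Kcne1 (1.13) and the magnesium channel Trpm6 (1.12) were past 2-fold. Water channels of principal cells were lower, Aqp2 at 3407, 3194, 5412 and 3261 (-0.73) and Aqp3 at 3179, 2353, 4315 and 2251 (-0.93), together with the sodium pump regulator Fxyd4 (-0.99) and the carbonic anhydrase Car15 (-1.30). In the thick limb the cotransporter Slc12a1 (NKCC2) was lower (-0.74, from 11951 to 7129.9), and in the distal tubule Slc12a3 (NCC) was higher (0.35, from 10274 to 13104). The kinase Wnk4 was at -0.52 here and 0.53 under control treatment. Summed distal intensity was alike on the ALDO arrays, at 189272 in WT ALDO and 194773 in KO ALDO.

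Corticosteroid receptors and targets had no common direction. Cdkn1a, Edn1 (0.55), Mt1 (0.45) and Mt2 (0.44) were higher, Fkbp5 (0.05) and Per1 (0.10) were near 0, and Errfi1 (-0.53), Angptl4 (-0.85) and Pdk4 (-1.02) were lower. The glucocorticoid receptor Nr3c1 was at -0.41 and the mineralocorticoid receptor Nr3c2, just under the bound of the brighter 50%, read 221, 254, 253 and 249, alike on the ALDO arrays.

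**Figure D3:**
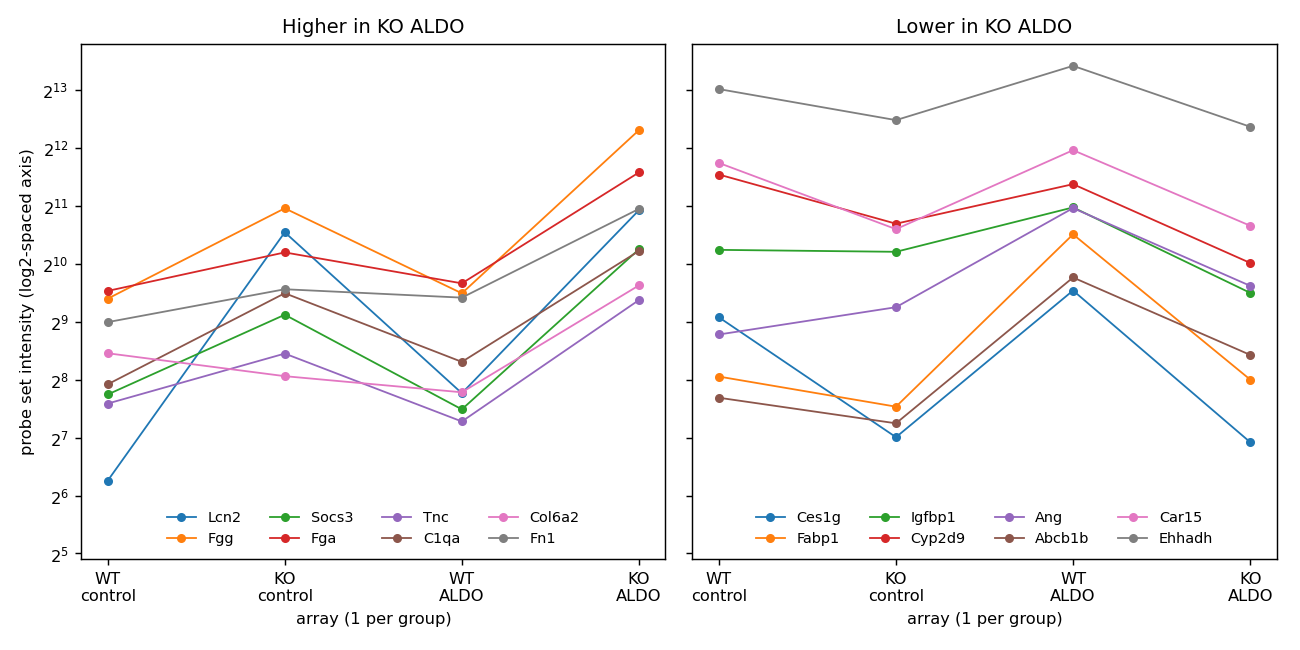
Probe set intensity (axis spaced by log2) of 8 genes higher and 8 genes lower in KO ALDO on each of the 4 arrays, 1 array per group; lines join a gene's values and stand for no time course. Lcn2 is already high in KO control, Col6a2 and Fn1 stand out only in KO ALDO, and Fabp1, Ang and Abcb1b are high in WT ALDO alone.

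Fatty acid oxidation genes had a median below 0 at each stage of the pathway, though entry was mixed. Of 63 measured genes 51 lay below 0, and the median was -0.38. At 1.5-fold 17 were lower and at 2-fold 4. Under control treatment the median was -0.06. Proximal tubule markers, whose summed intensity was 518501 in WT ALDO and 434913 in KO ALDO, were lower together with these genes, and their part was not tested. WT ALDO was the brightest of the 4 arrays for 39 of the 63 genes, where it was so for 22.3% of all genes. At entry 10 of 17 genes lay below 0 and 7 above (median -0.25), where 51.3% of all genes lay above 0. Among those below, the liver-type binding protein Fabp1 read 266, 186, 1461 and 257 (-2.44). The scavenger receptor Cd36 read 5533, 4242, 4625 and 2872 (-0.68) and the medium-chain ligase Acsm3 5139.5, 2953, 3687 and 1607 (-1.19). The endothelial and macrophage binding protein Fabp4 was higher (0.79). Mitochondrial steps were lower in 18 of 20 cases. Cpt1a, the carnitine gate, was at -0.38, Cpt2 at -0.64, the dehydrogenases Acadl at -0.55 and Acadm at -0.34, and Decr1, which handles unsaturated chains, at -0.62. For Acadl, Acadm, Decr1 and Etfdh the control differences were -0.02, 0.08, -0.06 and 0.00. All 17 measured peroxisomal and omega-oxidation genes were below 0 (median -0.46). The bifunctional enzyme Ehhadh read 8311, 5732, 10979.6 and 5297, the thiolase Acaa1b 15079, 13597, 24713 and 14734 and the transporter Abcd3 10826, 9936, 12470.3 and 8292. WT ALDO was the brightest array for each, and KO ALDO the dimmest for Ehhadh and Abcd3. The nuclear receptor Ppara, which drives these genes, was at -0.66, its targets Vnn1 at -0.76 and Pdk4 at -1.02, and the coactivator Ppargc1a at 0.04. An exact AGGTCA repeat spaced by 1 base, the core letters of the element this receptor family binds, was in 0 of 52 promoter windows of the list and in 1 of 7461 of all genes counted (0.0134%), which says only that these exact letters are not in those windows.

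Other mitochondrial genes differed far less. Complex I subunits were below 0 in 20 of 21 cases, but the median was only -0.12, close to the -0.08 of the brightest 25% of the genes counted. Complexes II to IV had a median of -0.02 and ATP synthase -0.06. Glycolytic genes had no common direction. Pfkp (0.77), Pkm (0.69), Hk1 (0.47) and the glucose transporter Slc2a1 (0.53) were higher, and Ldha (-0.01) and Aldoa (-0.08) were near 0. In gluconeogenesis, glucose-6-phosphatase G6pc (-0.51) and pyruvate carboxylase Pcx (-0.41) were lower, while Pck1 was at 0.18.

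Amino acid catabolism was lower in 28 of 34 genes (median -0.29). On the tryptophan route, Kmo (-0.84) and Aadat (-1.04), which make 3-hydroxykynurenine and kynurenic acid, were lowest, and Kynu (0.61) was the only one above 0. Xenobiotic genes had a median of -0.18, with the carboxylesterase Ces1g at 541, 129, 746 and 121 (-2.47) and Cyp2d9, a male-biased enzyme, at 2988, 1659, 2663 and 1037 (-1.35). Of the 14 genes above 0 among 48, Cyp27b1, which activates vitamin D, was highest at 1.05 and the only one past 1.5-fold. Cholesterol synthesis was lower in 12 of 17 genes (median -0.24), led by Idi1 (-0.72) and Sc5d, whose difference of -0.75 was -0.11 as the mean of its probe sets. Genes of sterol uptake and control had no common direction (6 above and 7 below 0, median -0.01). Highest were apolipoprotein E (Apoe), at 3796, 3764, 2852 and 5681 (0.99), and the cholesterol exporters Abcg1 (0.79) and Abca1 (0.61), and lowest was the oxysterol hydroxylase Cyp7b1 (-1.24). The macrophage markers, which were higher together with these 3 exporter and apolipoprotein genes, are given above, and their part was not tested.

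Stress responses went several ways. Protein folding genes had a median of 0.13, which was -0.02 after centring and -0.18 under control treatment. WT ALDO was the dimmest array for 20 of its 44 genes, where it was so for 21.2% of all genes. The small heat shock proteins Hspb1 (1542, 1343, 1347 and 2916; 1.11) and Hspb8 (0.94) were highest, and the mitochondrial chaperones Hspa9 (-0.52) and Hspd1 (-0.40) lowest. Hspa1a and Hspa1b, near-identical copies that probe sets may not separate, were at 0.65 and 0.51. In the endoplasmic reticulum, Ddit3 (CHOP, 0.69), Manf (0.68) and Sdf2l1 (0.56) were higher and the chaperone Hspa5 (BiP) was at 0.16. Antioxidant genes centred near 0 (median -0.05). Heme oxygenase 1 (Hmox1) read 632, 286, 262 and 612, so its difference was 1.18 under ALDO and -1.10 under control treatment, while Nqo1 (-0.47) and Gclm (-0.39), other targets of NRF2, were lower. The oxidase subunit Cybb of phagocytes was at 0.94, and Nox4, the form of tubules, at -0.19.

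Immediate early genes, transcribed within minutes of a stimulus, were higher in 17 of 21 cases (median 0.38). Ier5 (1.24), Klf6 (0.93), Klf4 (0.83), Fosl2 (0.77) and Jun (0.75) led, Fos (0.21) and Egr1 (0.23) were near the bottom of those above 0, and Dusp1 (-0.26) lay below. Circadian genes were lower in 8 of 11 cases (median -0.38), among them the output factors Dbp (-0.71), Hlf (-0.45) and Tef (-0.36), whereas Per2 was at 0.51. The median of the circadian clock list was -0.05 with all genes kept and -0.06 with probe sets averaged. The sources used here do not give sampling times.

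Cell cycle genes were above 0 in 13 of 15 genes of G1 and S phase (median 0.28), led by the ribonucleotide reductase subunit Rrm2 (1.18, 0.59 as the mean of its probe sets) and the helicase subunit Mcm4 (0.97). Most mitotic genes were dim, and Mki67, outside the brighter 50%, read 111, 291, 78.2 and 334. The cell cycle inhibitor p21 (Cdkn1a) read 203, 554, 258 and 885 (1.72) and Phlda3, another p53 target, 403, 448, 285 and 740.2 (1.33). Most other p53 targets did not follow, with Mdm2 at 0.11, Ccng1 at -0.07 and Sesn2 at -0.94. Calcium-binding S100 proteins and annexins were higher in 14 of 16 cases (median 0.63), with S100a6 at 1.17, S100a4 at 1.06 and Anxa1 at 0.97.

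Lipid mediator genes were higher in 14 of 17 cases (median 0.48). Leukotriene C4 synthase (Ltc4s) read 276, 949, 391 and 1406 and Alox5ap, the activating protein of 5-lipoxygenase, 226, 477, 250.3 and 593, prostaglandin D synthase (Ptgds) 2016, 8819, 1672 and 3744 and prostaglandin E synthase (Ptges) 161, 494, 252 and 581. All 4 were brighter on both KO arrays than on both WT arrays. Among growth factors, platelet-derived growth factor B (Pdgfb) was highest (0.79, from 779 to 1357) and insulin-like growth factor-binding protein 1 (Igfbp1) lowest, at 1213, 1185, 2016 and 725 (-1.46); epidermal growth factor (Egf) was at -0.48. Lysosomal genes other than Ctss centred near 0 (list median 0.03, -0.11 after centring), and the Wnt list (median 0.04) changed sign in the brightest 25% of all genes and under centring, quantile normalization and the mean of all probe sets.

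The genotype difference under control treatment, from the 2 arrays that the ALDO comparison did not use, is set beside it for the same genes. Of the 115 genes higher in KO ALDO, 110 (95.7%) were also above 0 under control treatment, with a median of 0.81, where 49.7% of all genes were. Of the 32 lower genes, 30 were below 0, with a median of -0.54. KO ALDO was the brightest of the 4 arrays for 101 of the 115 higher genes (87.8%, against 33.5% of all genes). WT ALDO was the dimmest for 47 of them (40.9%, against 21.2%). For the 32 lower genes WT ALDO was the brightest array in 24 cases (75%, against 22.3%), and KO ALDO the dimmest in 21 (65.6%, against 30.2%). The choice of genes by the difference between the ALDO arrays itself favours these places, so the shares are a description. Among lists, macrophage (1.14 under control, 1.17 under ALDO), interferon (0.35 and 0.33) and MHC class I medians were nearly alike under both treatments. Matrix glycoproteins taken with proteoglycans and crosslinkers (0.31 and 0.63), smooth muscle (0.38 and 0.73) and fatty acid oxidation (-0.06 and -0.38) lay further from 0 under ALDO, and distal nephron genes closer to it (0.34 and 0.11, or -0.04 after centring). None of these gaps between treatments was tested.

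**Figure D4:**
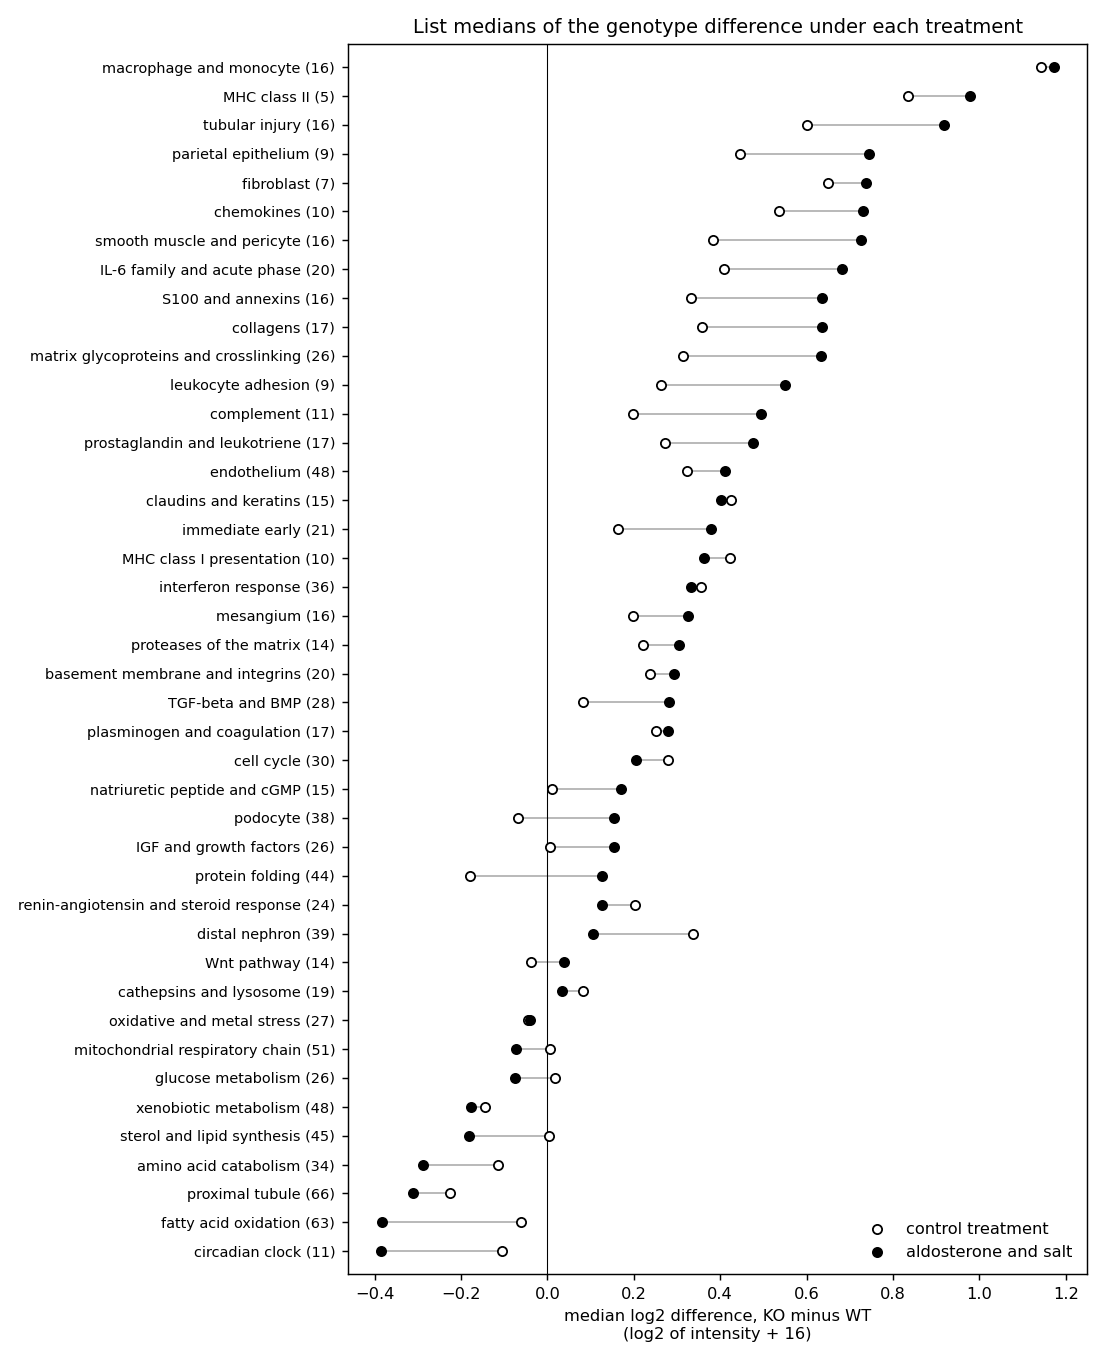
Median difference between KO and WT (log2 of intensity + 16) of each of the 42 gene lists under control treatment (open circles) and under aldosterone and salt (filled circles), 1 array per group. Macrophage medians nearly coincide at 1.14 and 1.17, fatty acid oxidation moves from -0.06 to -0.38, and podocyte and protein folding medians lie on opposite sides of 0, though the protein folding median under ALDO is -0.02 after median-centring.

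A further probe set in the brighter range was present for 28 of the 147 genes past 2-fold. It had the same sign in all 28, and in 2372 of 3327 genes when all genes are taken (71.3%). Choosing genes far from 0 itself favours a shared sign, so the 2 shares are a description. The further probe set was past 2-fold too in 17 and smaller in size in 19. Among the list members named here, Aldoa, Col4a1, Fcgr2b, Fkbp5, Flt1, Gbp2, Podxl, Ppargc1a, Ptpro, Slc4a4, Slco3a1, Smad4, Thsd7a, Timp3 and Vegfa had a bright probe set of the opposite sign. Probe sets of a gene measure the same RNA and say nothing of the spread between mice. Over the 3327 genes the SD of the difference between brightest and next-brightest probe set was 0.256. Neighbouring genes both past 2-fold were Csrp1 and Phlda3, Lyz2 and Lyz1, Tubb2a and Tubb2b, Fgg and Fga, and, in opposite directions, Depp1 (-1.03) and Tmem72 (1.08). Tubb2a and Tubb2b are close copies that probe sets may not separate.

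**Figure D5:**
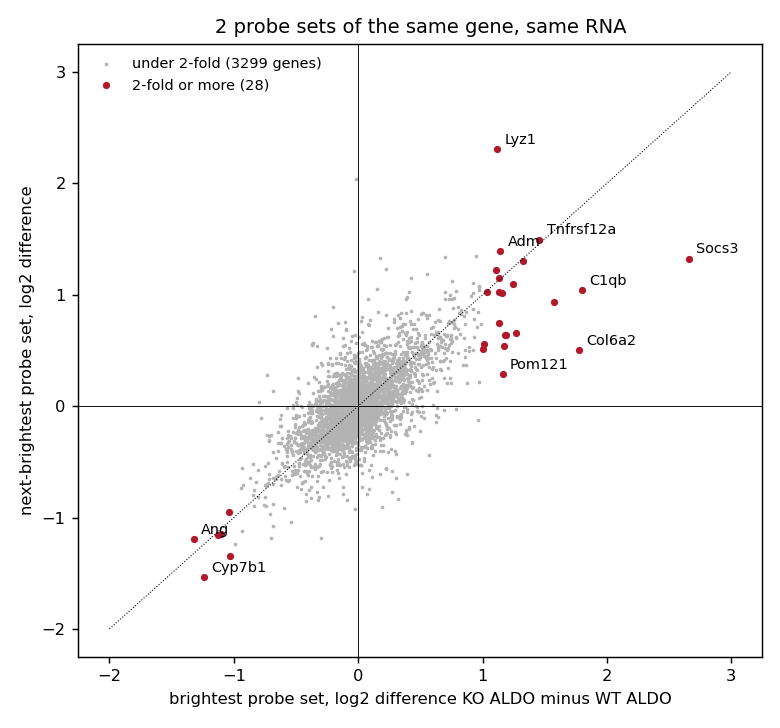
Difference between KO ALDO and WT ALDO (log2 of intensity + 16) of the brightest (horizontal) and next-brightest (vertical) probe set of 3327 genes; red points are the 28 genes past 2-fold, and the dotted line marks equal values. All 28 share a sign, which choosing genes past 2-fold itself favours, and Socs3 and Col6a2 are among those whose next probe set differs less.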

How the data were processed

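Each of the 4 groups gave 1 Affymetrix array of glomerular total RNA, per the labels' protocols. The deposited intensities are linear values per probe set that the authors made with Affymetrix Expression Console, per the submitters' processing notes; its algorithm and version are unknown here, and every array has a trimmed mean (2% left out at each end) of 500.003, which hides a change common to all genes. Of 45101 probe sets, 34945 had 1 gene symbol, 932 several and 9160 none listed, with 64 controls left out; 34741 Entrez identifiers (99.4%) matched RefSeq genes (GRCm38.p6), and 0 symbols were renamed. Values were taken as log2(intensity + 16), which understates the difference of dim genes; the brightest probe set stood for its gene, and the brighter 50% of 18193 genes was kept (9097, intensity 247 or more). Python 3.11.15, numpy 2.4.6 and pandas 2.3.3 were used, and the steps were tested on simulated data. With 1 array per group no test was made, and the number of arrays limits the precision.

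The members and the 45 gene lists (955 distinct measured genes, 42 lists with 5 or more) were chosen with earlier results of these data known. Named genes were the 30 at either end of the difference (leaving out clone names and genes with a further bright probe set of opposite sign), each list's members past 2-fold and up to 3 at either end, with no such exception, and the natriuretic peptide genes; others completing a role were chosen after their values were seen. Genes of the lists that no probe set names were not used here. Of 9097 genes, 7461 had a RefSeq promoter window. Alternatives were pseudocounts of 1 and 64, all genes, the brightest 25%, quantile normalization, median-centring and the mean of a gene's probe sets.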

Additional observations from a re-analysis of the deposited data

Results flagged for a closer look

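Some genotype differences past 2-fold under aldosterone and salt had the opposite sign under control treatment, with 1 array per group in each case, so that the contrast between treatments was not tested. Col6a2, a collagen VI chain, was higher under ALDO (1.77) and lower under control treatment (-0.38). Smad6, an inhibitor of BMP signalling, had 1.09 and -0.08, and the small heat shock protein Hspb1 1.11 and -0.20. Hmox1, heme oxygenase 1, had 1.18 and -1.10, with intensities of 632 and 286 in WT and KO control and of 262 and 612 in WT and KO ALDO. Lower under ALDO but not under control were the ribonuclease angiogenin, Ang (-1.32 and 0.46), and the acetoacetyl-CoA synthetase Aacs (-1.04 and 0.24). Among lists, the podocyte median was 0.15 under ALDO and -0.07 under control treatment, and the protein folding median 0.13 and -0.18, although median-centring takes the former ALDO value to 0.01 and the latter to -0.02.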

How the results depend on the processing

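Of the 42 list medians, 42 kept their sign with a pseudocount of 1 or 64 and with all genes kept, 41 with quantile normalization and 37 with median-centring. The mean of all probe sets kept 40 of 41, and the brightest 25% of all genes 33 of 37. The counts of genes past 2-fold moved by over 1.5 times with the filter and the centring: 115 higher and 32 lower became 859 and 425 with all genes kept, 35 and 19 in the brightest 25%, and 70 and 52 with median-centring, which left all 32 lower genes in place. The mean of all probe sets gave 131 and 33, of which 79 and 25 were shared with the counts above. In the brightest 25% the sign changed for the median of the natriuretic peptide and cGMP list (-0.089), the median of the renin-angiotensin and steroid response list (-0.10) and the median of the IGF and growth factors list (-0.063). Median-centring turned the median of the distal nephron list (-0.036), the median of the renin-angiotensin and steroid response list (-0.016) and the median of the protein folding list (-0.016), besides the Wnt and cathepsin medians. The Wnt median also turned in the brightest 25%, with quantile normalization and when probe sets were averaged. Centring subtracts a constant of 0.14, which accounts for its sign changes by construction; the cause of the others was not tested. Centring lowered the other medians by about that amount. In the brightest 25% the median of the distal nephron list was 0.05 and the median of the protein folding list 0.07. With probe sets averaged the cathepsin median was 0.14. The Wnt median was 0.22 with all genes kept, -0.10 in the brightest 25% and -0.05 with probe sets averaged. The other printed list medians that moved by over 1.5 times with the filter or with averaged probe sets have that value beside them in the results. Erbb3, at -1.10 by its brightest probe set, was at 0.0042 as the mean of all. No paired analysis was possible because each group has 1 array. Dim genes limit the sizes: with a pseudocount of 64, S100a8 was at 2.60 and Wfdc17 at 2.45.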
